A study of Mus musculus with 18 samples.

Results

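The microglial chemokines described here are 10 genes chosen by symbol: *Ccl2*, *Ccl3*, *Ccl4*, *Ccl6*, *Ccl7*, *Ccl9*, *Ccl12*, *Cxcl2*, *Cxcl14* and *Cxcl16*, which are 10 of the 55536 genes in the count table. They were followed in microglia enriched from mouse striatum with magnetic beads against CD11b, an integrin subunit of microglia and other myeloid cells. All mice were C57BL/6, and the 18 samples fall into 4 genotypes: WT (n = 5), Tyrobp-KO (n = 3), Q175 (n = 5) and Q175;Tyrobp-KO (n = 5). Q175 mice model Huntington's disease and are heterozygous for a knock-in *Htt* allele whose exon 1 is human and carries an expanded CAG repeat, and the Tyrobp-KO allele is constitutive, so *Tyrobp* is deleted in all cells and not in microglia alone. The labels give no age. They give a pool of 2 striata per sample, where the methods of the study give 1. With 1 female among the WT, 2 among the Tyrobp-KO, 4 among the Q175 and 2 among the Q175;Tyrobp-KO samples, sex and the Q175 allele are largely confounded in the comparison of Q175 with WT.

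Chemokines are small secreted proteins that bind G protein-coupled receptors and direct the movement of leukocytes. *Ccl3* and *Ccl4* (MIP-1 alpha and MIP-1 beta) attract monocytes, macrophages and T cells, and *Ccl3* binds *Ccr1*. *Ccl2*, *Ccl7* and *Ccl12* are ligands of *Ccr2* that draw monocytes. *Ccl6* and *Ccl9* are rodent chemokines that act through *Ccr1*. *Cxcl2* attracts neutrophils through *Cxcr2*, *Cxcl16* is a transmembrane ligand of *Cxcr6* that can be shed, and *Cxcl14* is a divergent CXC chemokine with broad tissue expression. *Tyrobp* (DAP12) is the adaptor through which *Trem2* and other myeloid receptors signal by an immunoreceptor tyrosine-based activation motif. The study asked what deletion of this adaptor changes in Q175 microglia.

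In the GENCODE M21 annotation of GRCm38, 8 of the 10 genes lie on chromosome 11. *Ccl9* (83572919-83578636, minus strand), *Ccl6* (83587882-83593087, minus), *Ccl3* (83647844-83649355, minus) and *Ccl4* (83662584-83664683, plus) form one cluster of 91765 bases, in which *Ccl3* and *Ccl4* are transcribed away from each other from starts 13229 bases apart. *Ccl2* (82035571-82037453, plus), *Ccl7* (82045712-82047525, plus) and *Ccl12* (82101845-82103400, plus) form another, and *Cxcl16* (70453983-70459984, minus) stands alone. *Cxcl14* is on chromosome 13 (56288643-56296551, minus) and *Cxcl2* on chromosome 5 (90903871-90905938, plus). Since *Ccl3* and *Ccl4* are paralogs, their coding sequences in the GENCODE M21 transcripts were compared to see what the reads could distinguish. That of *Ccl3* is shown, with the longest run that it shares with *Ccl4*, 9 bases, in capitals.
Ccl3: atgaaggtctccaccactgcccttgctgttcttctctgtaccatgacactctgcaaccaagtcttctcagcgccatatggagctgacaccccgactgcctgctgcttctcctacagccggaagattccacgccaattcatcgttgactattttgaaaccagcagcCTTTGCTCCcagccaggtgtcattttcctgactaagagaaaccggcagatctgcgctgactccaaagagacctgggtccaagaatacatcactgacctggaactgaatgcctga
Each of the pair is 279 bases long with its stop codon, and 68.0% of 284 aligned positions were identical. No stretch of 31 bases in the transcripts of *Ccl3*, *Ccl4*, *Ccl2*, *Ccl7*, *Ccl12* or *Cxcl14* occurred in the annotated transcripts of another gene, on either strand. Such shared stretches made up 18.5% of those of *Cxcl16*, all in the neighbouring *Zmynd15*, 7.59% of those of *Cxcl2*, all in *Cxcl3*, 3.98% of those of *Ccl9*, spread over many genes, and 1.02% of those of *Ccl6*. The libraries did not mark strand, so reads from the sequence that *Cxcl16* shares with *Zmynd15* on the opposite strand cannot be assigned. The level of *Cxcl16* is therefore less certain than those of *Ccl3* and *Ccl4*. *Ccl2* overlaps *Gm17268* and *Ccl6* overlaps *E230016K23Rik* on the opposite strand as well. Neither shared a stretch of 31 bases with the annotated transcripts of the gene it overlaps.

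Promoter sequence from RefSeq (GRCm38.p6) was at hand for 6 members: *Ccl3*, *Ccl6*, *Ccl9*, *Ccl12*, *Cxcl2* and *Cxcl14*. Those of *Ccl3* and *Ccl9* are shown because these neighbours varied together between samples while *Ccl3* alone of the pair passed the test for *Tyrobp* deletion. Each line is the 250 bases before the start, on the strand of the gene, with matches to 4 motifs in capitals, each searched on both strands. The motifs are the kappaB consensus of NF-kB, the AP-1 site TGANTCA, the TATA box TATAAA and the PU.1 core GAGGAA.
Ccl3, chr11:83649379-83649628, minus strand: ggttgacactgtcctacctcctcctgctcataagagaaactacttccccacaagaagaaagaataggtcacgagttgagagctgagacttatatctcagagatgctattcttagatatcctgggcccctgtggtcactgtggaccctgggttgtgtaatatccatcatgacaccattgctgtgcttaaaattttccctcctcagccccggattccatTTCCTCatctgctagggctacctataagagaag
Ccl9, chr11:83578637-83578886, minus strand: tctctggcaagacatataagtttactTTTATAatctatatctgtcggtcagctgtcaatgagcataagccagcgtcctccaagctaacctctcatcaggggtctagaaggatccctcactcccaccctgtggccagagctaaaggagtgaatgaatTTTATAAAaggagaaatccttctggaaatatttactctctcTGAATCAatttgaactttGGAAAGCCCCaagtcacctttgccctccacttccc
In the *Ccl3* window the search found 1 PU.1 core, 33 to 28 bases before the start, and no match to the other 3 motifs. The *Ccl9* window held a kappaB match 35 to 26 bases before the start, an AP-1 site 53 to 47 bases before it and TATAAA in 3 places, 2 of which overlap. *Cxcl2* had 2 overlapping kappaB matches (the first, GGGAATTTCC, 97 to 88 bases before the start), *Ccl12* a TATAAA at 31 to 26 bases and a PU.1 core, and *Ccl6* and *Cxcl14* none of the 4. Of 32851 promoter windows of the same length in the reference, 3.90% held the kappaB consensus, 6.75% the AP-1 site, 12.4% TATAAA and 23.3% the PU.1 core. These matches describe letters in a short window only.

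RNA sequencing gave between 11260410 and 29771983 reads counted on genes per sample. Levels are in CPM, counts relative to the total of the library after TMM scaling (edgeR's correction for library composition), and a count of 3 corresponded to between 0.0999 and 0.295 CPM, which is the floor used below for a gene without reads. *Tyrobp* itself was at 351 ± 126 CPM in WT and 283 ± 56.3 in Q175 (SD, n = 5 each), and at 19.5 ± 1.92 in Tyrobp-KO (n = 3) and 12.96 ± 1.88 in Q175;Tyrobp-KO (n = 5), so all samples matched their labels for *Tyrobp*. The Q175 allele was not checked in the counts. All 10 microglia markers (*Cx3cr1*, *P2ry12* and others) reached 1 CPM, with a summed level of 12180 to 21620 CPM over the samples. All 10 markers of astrocytes, neurons, oligodendrocytes with their precursors, and monocytes or neutrophils also reached it, as did 8 of 10 for border-associated macrophages and 9 of 10 for endothelial and mural cells. Astrocyte markers summed to 604 to 1116 CPM in WT, 738 to 4185 in Tyrobp-KO, 1023 to 6093 in Q175 and 680 to 3335 in Q175;Tyrobp-KO. In such bead-enriched pools, fewer cells of a type and less RNA per cell cannot be told apart, and the labels do not tie replicates to single animals, although the methods describe dissociation of striata mouse by mouse, so p-values measure the spread between these samples.

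Compared per kilobase of exon, *Ccl6* was the most abundant in WT microglia at 65.8 ± 24.0 CPM per kb, and *Ccl9* (32.5 ± 12.4), *Ccl3* (30.6 ± 10.9), *Ccl12* (27.8 ± 11.2) and *Ccl4* (25.4 ± 9.52) followed at levels that did not differ beyond their spread (SD, n = 5). *Cxcl16* (14.2 ± 2.25) and *Cxcl14* (3.36 ± 1.58) were lower, *Ccl2* was at 1.07 ± 0.466, and *Ccl7* and *Cxcl2* were near the floor. In Q175;Tyrobp-KO microglia the order was *Ccl6* (41.5 ± 7.17), *Ccl12* (25.9 ± 9.95) and *Ccl9* (17.2 ± 4.46), then *Cxcl14* (9.04 ± 6.30), *Cxcl16* (7.48 ± 1.56), *Ccl3* (6.09 ± 1.36) and *Ccl4* (5.38 ± 2.92), and the last 4 overlapped. *Ccl3* and *Ccl4* thus stood level with *Ccl9* and *Ccl12* per kb in WT, and below both in Q175;Tyrobp-KO. The plot of CPM by sample shows these levels for the 8 genes that could be tested.

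**Figure D1:**
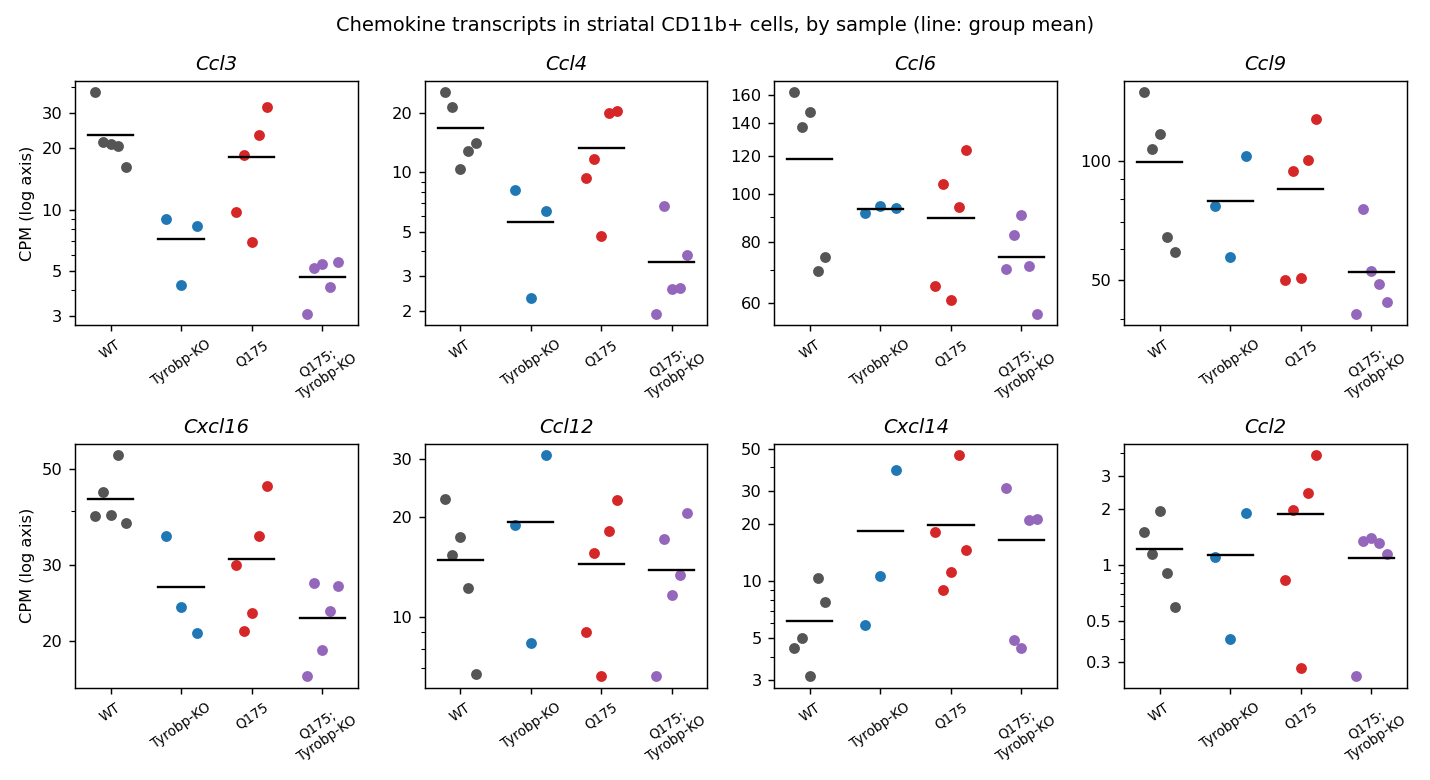
Level of each of 8 chemokines (CPM, log axis, a separate scale in each panel) in the 18 samples, grouped by genotype, with each point a sample and each line a group mean. Ccl3 in the Tyrobp-KO and Q175;Tyrobp-KO samples sits at 3.07 to 8.98 CPM, while WT and Q175 samples sit at 6.96 to 37.9; Cxcl14 runs from 3.14 to 10.4 CPM in WT and from 4.46 to 46.6 in the other 3 genotypes.

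*Ccl3* was lower in every group that lacked *Tyrobp*. The 5 WT samples were at 37.9, 21.5, 20.9, 20.5 and 16.2 CPM and the 3 Tyrobp-KO samples at 8.98, 4.24 and 8.26. The 5 Q175 samples were at 9.74, 18.6, 6.96, 23.2 and 32.1 CPM and the 5 Q175;Tyrobp-KO samples at 3.07, 5.18, 5.40, 4.17 and 5.52. All Tyrobp-KO samples were thus below all WT samples, and all Q175;Tyrobp-KO samples below all Q175 samples, although Q175 replicate 9 (6.96) lay below Tyrobp-KO replicates 15 and 20. Behind these levels stood 49 to 755 reads per sample. *Ccl3* and *Ccl4* were chosen with their lower level already known, as the study had named both.

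*Ccl4* followed the same pattern. Its level was 25.4, 21.3, 10.4, 12.8 and 14.1 CPM in WT and 8.17, 2.34 and 6.37 in Tyrobp-KO, with no overlap. It was 9.37, 11.7, 4.77, 19.97 and 20.5 CPM in Q175 and 1.94, 6.78, 2.60, 2.62 and 3.82 in Q175;Tyrobp-KO. These last groups overlapped in 1 of 25 pairs of samples, since Q175 replicate 9 (4.77) was below Q175;Tyrobp-KO replicate 11 (6.78). Of the members, 3 (*Ccl3*, *Ccl4* and *Cxcl16*) were lower without overlap in Tyrobp-KO than in WT, where 3.28% of the genes tested were, and *Ccl3* alone was in Q175;Tyrobp-KO against Q175, where 0.36% were. No member separated all 8 null from all 10 intact samples, as 0.0591% of genes did in the lower direction, and *Ccl3* was lower in 78 of those 80 pairs and *Ccl4* in 77.

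Averaged over both *Htt* backgrounds in one fit of the 4 groups, *Tyrobp* deletion lowered *Ccl3* and *Ccl4*. The 10 intact samples had a mean of 20.8 CPM of *Ccl3* and the 8 null samples 5.60, a ratio of 3.71, and the log2 fold change was -1.83 ± 0.28 (SE; adjusted p = 0.00669, edgeR). For *Ccl4* the means were 15.02 and 4.33 CPM, a ratio of 3.47, with a log2 fold change of -1.74 ± 0.34 (adjusted p = 0.0467, edgeR). These were the 2 members called of 8 tested at an FDR of 0.1 (Benjamini-Hochberg over 18613 genes), against 0.199% of all genes tested in this contrast. At an unadjusted p under 0.05, 4 members passed (*Ccl3*, *Ccl4*, *Ccl9* and *Cxcl16*), against 9.19% of all genes. DESeq2 called the same 2 members, against 1.1% of all genes. The median log2 fold change was -0.48 over the 8 members tested, -0.38 over the 6 without *Ccl3* and *Ccl4*, and -0.02 over all genes.

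In the averaged contrast *Ccl3* and *Ccl4* stayed called at an FDR of 0.1 with sex, a score of non-microglial markers or a score of dissociation response genes in the fit. With sex as a term the log2 fold change was -1.84 for *Ccl3* (adjusted p = 0.00574, edgeR) and -1.75 for *Ccl4* (adjusted p = 0.0514, edgeR), and mean *Ccl3* was 6.46 CPM in 4 null against 20.8 in 5 intact females, and 4.75 in 4 null against 20.7 in 5 intact males. The males were unevenly spread, with 1 Q175 male (*Ccl3* at 6.96 CPM, *Ccl4* at 4.77) and 3 Q175;Tyrobp-KO males (means of 4.92 and 4.001). On the Q175 background the difference of mean log2 CPM in males was thus -0.50 for *Ccl3* and -0.40 for *Ccl4*. In females (2 null, 4 intact) it was -2.19 and -2.37. Immediate early genes are known to rise with *Ccl3* and *Ccl4* when microglia are dissociated from tissue. Of the dissociation response list, 18 of 20 genes were tested, and none was called in any comparison by edgeR. In the averaged contrast 4 were lower and 1 higher at an unadjusted p under 0.05, against 9.19% of all genes. DESeq2 called 2 lower there, *Fosb* and *Egr1*, against 1.1% of all genes. These 2 were named after their values were seen (log2 fold changes of -1.19 and -1.14 in edgeR). The summed level of the list was 457 to 654 CPM in WT, 427 to 578 in Tyrobp-KO, 375 to 505 in Q175 and 437 to 536 in Q175;Tyrobp-KO, and its most abundant members *Klf6*, *Btg2* and *Ier5* had log2 fold changes of -0.06, 0.11 and 0.34 in the averaged contrast. With the dissociation score as a term, *Ccl3* was at -1.89 (adjusted p = 0.0137, edgeR) and *Ccl4* at -1.86 (adjusted p = 0.0457, edgeR). The score weighs all genes of the list alike, so it does not follow *Fosb* and *Egr1* alone. The part of dissociation in these differences was not tested. With the non-microglial score they were at -1.84 and -1.78. Leaving out 1 sample at a time kept *Ccl3* called (adjusted p from 0.00120 to 0.0447, edgeR), but *Ccl4* lost its call without WT replicate 1 (adjusted p = 0.110), Tyrobp-KO replicate 19 (0.223), or Q175;Tyrobp-KO replicate 12 (0.104) or 13 (0.102), all by edgeR.

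On each background alone, edgeR called no member. In Q175;Tyrobp-KO against Q175 the log2 fold change was -1.95 ± 0.37 for *Ccl3* (adjusted p = 0.335, edgeR) and -1.89 ± 0.43 for *Ccl4* (adjusted p = 0.533, edgeR). Among all genes 0.0111% were called, and 3 members passed at an unadjusted p under 0.05 (*Ccl3*, *Ccl4* and *Ccl9*) against 8.01% of all genes. In Tyrobp-KO against WT the values were -1.64 ± 0.35 and -1.52 ± 0.44 (both adjusted p = 0.565, edgeR), where 0.0222% of all genes were called and 4 members passed unadjusted (*Ccl3*, *Ccl4*, *Cxcl16* and *Cxcl14*) against 6.82%. Markers of border-associated macrophages were lower in all 6 tested in Q175;Tyrobp-KO against Q175 (2 at an unadjusted p under 0.05, none called). Their sums there were 10.2 to 20.4 against 9.10 to 38.5 CPM. In Tyrobp-KO against WT they were higher in all 6 tested (2 at an unadjusted p under 0.05, none called by edgeR). Neuronal markers were lower in 10 of 10 in the first comparison (97.9 to 336 against 145 to 421 CPM) and higher in 9 of 10 in the second, with none called by edgeR. Also lower in the first were oligodendrocyte (10 of 10), endothelial and mural (8 of 9) and astrocyte markers (8 of 10). Monocyte or neutrophil markers (8 of 9) were higher there. In the second, astrocyte (10 of 10), monocyte or neutrophil (9 of 10), oligodendrocyte (6 of 10) and endothelial and mural markers (5 of 9) were higher. edgeR called none of these. Of all genes tested, 55.1% were lower in the first and 47.8% in the second. The part of such cells in the levels of *Ccl3* and *Ccl4* was not tested. DESeq2 called *Ccl3* and *Ccl4* in both comparisons, where it called 0.227% and 0.932% of all genes. The study, which used DESeq2, had reported both genes as differentially expressed in Q175;Tyrobp-KO against Q175 microglia. In Q175;Tyrobp-KO against Q175, *Ccl3* was also called by edgeR with all 4 groups in one fit (adjusted p = 0.0714), without a filter on low counts (0.0910) and without Q175 replicate 9 (0.0849). The difference between the deletion effects on the 2 backgrounds was -0.24 ± 0.53 for *Ccl3* and -0.31 ± 0.64 for *Ccl4* on the log2 scale (adjusted p = 0.912 and 0.905, edgeR interaction), an error wide enough to hold both no difference and one of considerable size. edgeR called no member and 0% of all genes for this interaction, with no member and 6.01% of genes at an unadjusted p under 0.05, and DESeq2 no member and 0.0107% of genes.

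**Figure D2:**
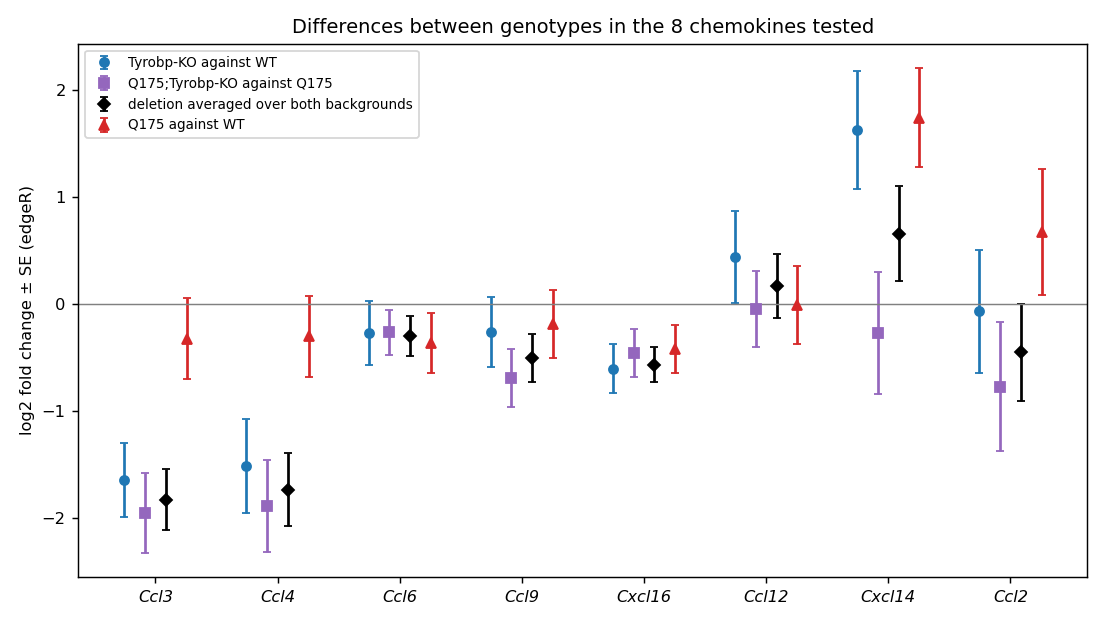
Log2 fold change of 8 chemokines from edgeR (points) with its standard error (bars) in 3 comparisons of genotypes and for Tyrobp deletion averaged over both Htt backgrounds. Ccl3 and Ccl4 lie between -1.52 and -1.95 in all 3 contrasts of the deletion and at -0.33 and -0.31 in Q175 against WT, while the other members lie between -0.78 and 1.74.

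Set against the other 8 chemokines, *Ccl3* and *Ccl4* stood lower in null samples than in intact ones. The mean log2 CPM of *Ccl3* and *Ccl4* exceeded that of the other 8 by 1.68 ± 0.38 in WT (SD, n = 5; 1.21 to 2.23) and by 1.02 ± 0.32 in Q175 (n = 5; 0.47 to 1.31). In Tyrobp-KO the difference was -0.20 ± 0.54 (n = 3; -0.74 to 0.34) and in Q175;Tyrobp-KO -0.53 ± 0.50 (n = 5; -1.13 to 0.18). The highest null sample, Tyrobp-KO replicate 15 (0.34), stayed below the lowest intact sample, Q175 replicate 9 (0.47). This difference is a description of members chosen with the results known and was not tested. It moved by -1.87 from WT to Tyrobp-KO, by -1.55 from Q175 to Q175;Tyrobp-KO and by -0.65 from WT to Q175. The mean of the other 8 weighs *Ccl7* and *Cxcl2*, both near the floor, as much as the rest. It also includes *Cxcl14*, whose mean level was higher in both Tyrobp-KO and Q175 than in WT. With medians in place of means the 3 values were -2.30, -1.53 and -1.17. Why they differ from those with means was not tested.

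**Figure D3:**
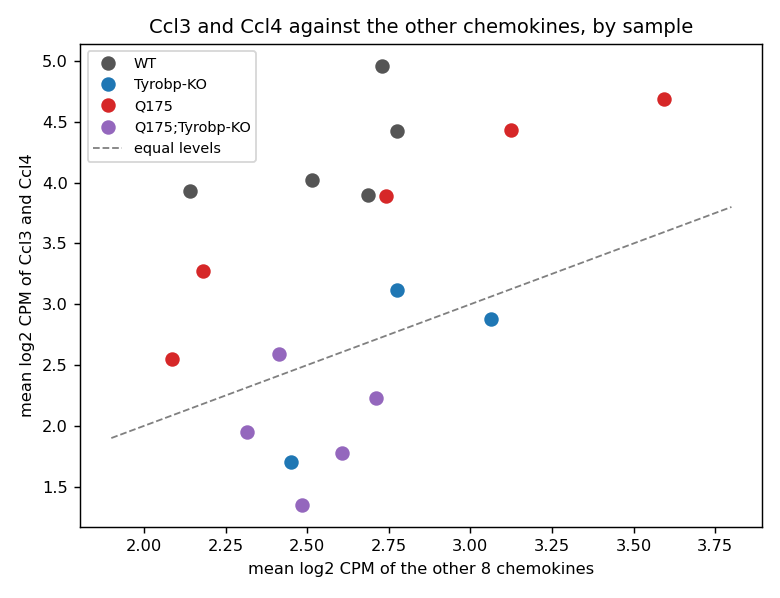
Mean log2 CPM of Ccl3 and Ccl4 (vertical axis) against the mean of the other 8 chemokines (horizontal axis), each point a sample, with a dashed line of equal levels. All 10 WT and Q175 samples lie above the line by 0.47 to 2.23, and the 8 samples without Tyrobp lie between 0.34 above and 1.13 below it.

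The remaining members of the cluster on chromosome 11, *Ccl6* and *Ccl9*, did not pass the test. *Ccl9* was at 41.1 to 75.4 CPM in Q175;Tyrobp-KO (median 48.9) and 50.1 to 128 in Q175 (median 94.3), lower in 21 of 25 pairs. Its levels were 57.0, 76.8 and 103 CPM in Tyrobp-KO and 58.7 to 149 in WT, which overlap widely. The log2 fold change of *Ccl9* was -0.51 ± 0.23 for the deletion averaged over both backgrounds (adjusted p = 0.508, edgeR). *Ccl6* was at 91.6 to 94.6 CPM in the 3 Tyrobp-KO samples, within the range of 69.5 to 162 in WT, and at 56.9 to 90.6 in Q175;Tyrobp-KO, within reach of 60.9 to 124 in Q175. Its averaged log2 fold change was -0.30 ± 0.18 (adjusted p = 0.680, edgeR). In null samples *Ccl9* stood at 0.679 and *Ccl6* at 0.785 of their mean level in intact samples, where *Ccl3* stood at 0.270 and *Ccl4* at 0.288.

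*Cxcl16* was lower in null samples without reaching the threshold. It was at 37.4 to 54.0 CPM in WT and at 35.04, 23.9 and 20.9 in Tyrobp-KO, with no overlap. It was at 21.1 to 45.7 CPM in Q175 and 16.5 to 27.2 in Q175;Tyrobp-KO, lower in 19 of 25 pairs. The averaged log2 fold change was -0.57 ± 0.16 (adjusted p = 0.271, edgeR; 0.125, DESeq2), and it lay between -0.69 and -0.44 under every alternative run for this contrast. In Q175 against WT, where both groups carry *Tyrobp*, *Cxcl16* was -0.43 ± 0.23 (adjusted p = 0.900, edgeR).

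No difference passed the test for the *Ccr2* ligands. *Ccl12*, the mouse MCP-5, was at 6.71 to 22.8 CPM in WT, 8.35 to 30.96 in Tyrobp-KO, 6.60 to 22.6 in Q175 and 6.64 to 20.6 in Q175;Tyrobp-KO, so the 4 groups covered nearly one range. Its averaged log2 fold change was 0.16 ± 0.30 (adjusted p = 0.917, edgeR). *Ccl2* was low throughout, at 4 to 92 reads per sample, with means of 1.22 ± 0.53 CPM in WT, 1.13 ± 0.75 in Tyrobp-KO, 1.88 ± 1.43 in Q175 and 1.09 ± 0.48 in Q175;Tyrobp-KO. Its averaged log2 fold change was -0.46 ± 0.45 (adjusted p = 0.826, edgeR). A difference of the size seen in *Ccl3* was not seen in *Ccl12*, whose reads per sample (106 to 531) covered a range like that of *Ccl3*.

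*Ccl7* and *Cxcl2* were at the limit of detection and below the filter of the main test. *Ccl7* had 0 to 3 reads in the WT samples and 13, 10 and 5 in the Tyrobp-KO samples, and 0 to 13 in Q175 and 4 to 17 in Q175;Tyrobp-KO. Its levels in Tyrobp-KO (0.339 to 0.753 CPM) were above those of all WT samples (0 to 0.225), a pattern that 1.2% of tested genes showed in the higher direction. Those genes passed the filter and *Ccl7* did not, so that share does not describe genes with as few reads. Markers of border-associated macrophages were also higher there, at 22.7 to 28.8 CPM in sum in Tyrobp-KO against 10.8 to 21.7 in WT. So were monocyte or neutrophil markers (9 of 10) and astrocyte markers (10 of 10). The part of these cell types in the result was not tested. Without a filter on low counts, the log2 fold change of *Ccl7* was 2.02 ± 0.93 in Tyrobp-KO against WT (adjusted p = 0.811, edgeR) and 1.19 ± 0.54 for the averaged deletion (adjusted p = 0.623, edgeR), both at an unadjusted p under 0.05, and no comparison called *Ccl7* or *Cxcl2*. *Cxcl2* had no read in 11 of 18 samples, 14 in Q175 replicate 17, 10 in Q175;Tyrobp-KO replicate 5 and at most 4 in any other. A count of 0 allows up to 0.0999 to 0.295 CPM at these depths, for counting error only.

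In Q175 against WT, no difference in *Ccl3* or *Ccl4* passed the test, and *Cxcl14* was called higher by DESeq2 but not by edgeR. The log2 fold changes of *Ccl3* and *Ccl4* in Q175 against WT were -0.33 ± 0.38 and -0.31 ± 0.38 (both adjusted p = 0.999, edgeR), and with sex as a term they were -0.83 ± 0.58 and -0.77 ± 0.61, with the only Q175 male (replicate 9) the lowest Q175 sample for both. *Cxcl14* was at 4.42, 5.03, 3.14, 10.4 and 7.74 CPM in WT and 18.1, 8.95, 11.2, 46.6 and 14.6 in Q175, higher in 24 of 25 pairs. Its log2 fold change was 1.74 ± 0.46 (adjusted p = 0.345, edgeR; 0.0361, DESeq2). edgeR called no member and 0% of all genes in this comparison, with 1 member (*Cxcl14*) and 6.24% of genes at an unadjusted p under 0.05. DESeq2 called *Cxcl14* alone of the members, and 1.28% of all genes. No member separated the 2 groups, as 1.08% of genes did in either direction.

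The level of *Cxcl14* followed that of astrocyte transcripts from sample to sample. In Tyrobp-KO it was 5.85, 10.7 and 38.6 CPM, beside sums of the 10 astrocyte markers of 738, 1447 and 4185 CPM. In Q175;Tyrobp-KO it was 30.9, 4.92, 4.46, 20.99 and 21.3 CPM, beside 3335, 741, 680, 3032 and 2800. Q175 replicate 14 had both the highest *Cxcl14* (46.6) and the highest astrocyte sum (6093) of all samples, and WT replicate 6 both the lowest *Cxcl14* (3.14) and the lowest sum (604). Per 1000 CPM of astrocyte markers, *Cxcl14* was at 7.14 ± 1.59 in WT, 8.19 ± 0.93 in Tyrobp-KO, 8.37 ± 1.75 in Q175 and 7.40 ± 1.13 in Q175;Tyrobp-KO, which overlap. The sum weighs *Slc1a2* most, at a mean of 1186 CPM over all samples, where the next marker, *Slc1a3*, had 228. With the score of non-microglial markers in the fit, its log2 fold change in Q175 against WT was -0.53 ± 0.70 (adjusted p = 0.9999, edgeR). That score includes the astrocyte markers and was -0.69 to -0.36 in WT and 0.28 to 1.28 in Q175. Since it separates the groups, this fit cannot tell the score from the genotype. Of the 10 astrocyte markers, DESeq2 called 7 higher in Q175 than in WT and edgeR none (8 at an unadjusted p under 0.05), with a median log2 fold change of 1.10. Of all genes in that comparison, DESeq2 called 1.28%, and 6.24% passed unadjusted in edgeR.

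**Figure D4:**
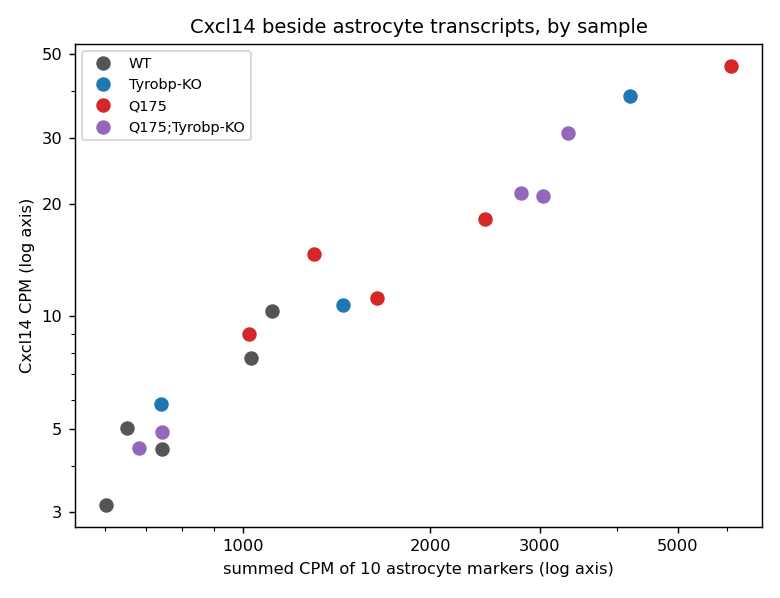
Cxcl14 (CPM, log axis) against the summed level of 10 astrocyte markers (CPM, log axis), each point a sample coloured by genotype. The points of all 4 genotypes run along one band, from WT replicate 6 at 604 and 3.14 CPM to Q175 replicate 14 at 6093 and 46.6 CPM.

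With differences between genotypes removed, CC chemokines varied together between samples to different degrees. After each group's mean was subtracted from log2 CPM, Pearson's r over the 18 samples was 0.84 for *Ccl3* with *Ccl4*, 0.87 for *Ccl3* with *Ccl12*, 0.89 for *Ccl3* with *Ccl2*, 0.83 for *Ccl3* with *Ccl9* and 0.90 for *Ccl2* with *Ccl12*. *Ccl6* was at 0.87 with *Ccl9*, 0.64 with *Ccl3*, 0.63 with *Ccl2*, 0.57 with *Ccl12* and 0.44 with *Ccl4*. The value was 0.49 for *Ccl3* with *Cxcl16* and -0.06 with *Cxcl14*. In Q175, replicates 17 and 14 were the highest and replicates 3 and 9 the lowest for *Ccl2*, *Ccl3* and *Ccl12*. These are descriptions over samples that share a library for both genes, with no test, and the points of 1 genotype are few. So *Ccl12*, for which no difference between genotypes passed the test, varied with *Ccl3* among samples after centring.

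Among 13575 genes with a mean of at least 50 normalized counts, the 8 whose group-centred levels were most like the mean of *Ccl3* and *Ccl4* were *Ifi27l2a* (r = 0.93), *Samd9l* (0.92), *Ifitm3* (0.92), *Rtp4* (0.91), *Ifi209* (0.89), *Gpr65* (0.88), *Glipr1* (0.88) and *Ifi207* (0.87), over 18 samples. *Ifi27l2a*, *Ifitm3*, *Rtp4*, *Ifi209* and *Ifi207* are known to be induced by interferon, and *Gpr65* is a proton-sensing receptor. Among the members, *Ccl12* ranked 13th of the list (r = 0.85), *Ccl9* 28th (0.81), *Cxcl16* 877th (0.56) and *Ccl6* 984th (0.55). *Ifi27l2a* was at 1.95 CPM in Q175 replicate 9 and 11.4 in replicate 14, and at 4.02 in Tyrobp-KO replicate 19 and 15.3 in replicate 20, the same samples in which *Ccl3* or *Ccl12* was low or high. None of the 8 was called for *Tyrobp* deletion averaged over both backgrounds (adjusted p from 0.306 to 0.898 over the 8, edgeR). The log2 fold change was 1.04 ± 0.37 for *Samd9l*, 0.26 ± 0.36 for *Ifi27l2a*, -0.87 ± 0.28 for *Gpr65* and -0.72 ± 0.22 for *Glipr1*. At an unadjusted p under 0.05, 3 of the 8 passed, against 9.19% of all genes. Without subtracting group means, r with *Ccl3* and *Ccl4* was 0.88 for *Gpr65* and 0.90 for *Glipr1*, and between -0.03 (*Samd9l*) and 0.44 (*Ifi27l2a*) for the other 6.

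**Figure D5:**
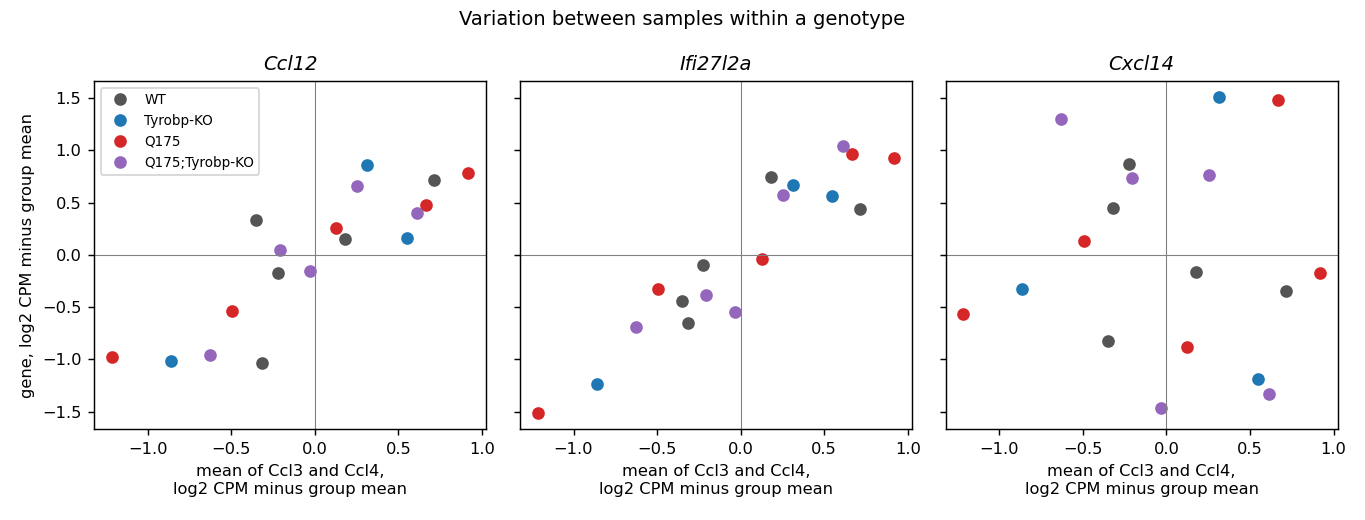
Log2 CPM minus the group mean of Ccl12, Ifi27l2a and Cxcl14 (vertical axes) against the same value for the mean of Ccl3 and Ccl4 (horizontal axes), each point a sample coloured by genotype. Ccl12 and Ifi27l2a rise along the diagonal (r = 0.85 and 0.93 over 18 samples), from Q175 replicate 9 at -1.22 on the horizontal axis to Q175 replicate 17 at 0.92, and Cxcl14 shows no such relation (r = -0.04).

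Chemokine receptors were expressed, and none was called in any comparison by edgeR or DESeq2. Of 24 chemokine receptor genes, 14 were tested in the averaged contrast, with 7 higher and 7 lower. None was at an unadjusted p under 0.05, against 9.19% of all genes. *Cx3cr1*, the fractalkine receptor of microglia, had a mean of 1862 CPM over the 18 samples and a log2 fold change of 0.38 ± 0.32 for the deletion, and *Cmklr1*, the chemerin receptor, was at 112 CPM (0.17 ± 0.28). *Ccrl2* (7.30 CPM, -0.30 ± 0.20) and *Ccr2* (6.74 CPM, 0.47 ± 0.27) were low.

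Other chemokine ligands were sparse, and 10 of 24 could be tested in the averaged contrast. None was called by edgeR or DESeq2. At an unadjusted p under 0.05, 3 were higher (*Ccl5*, *Cxcl9* and *Cxcl10*), against 9.19% of all genes in either direction. The median log2 fold change of the 10 was 0.20 against -0.02 over all genes. The most abundant were *Ccl25* (19.5 CPM, 0.16 ± 0.18), *Cx3cl1* (18.1 CPM, -0.42 ± 0.36), *Cxcl12* (5.06 CPM, -0.25 ± 0.43), *Cxcl10* (4.14 CPM, 1.28 ± 0.51; adjusted p = 0.434, edgeR) and *Ccl27a* (4.07 CPM, 0.24 ± 0.21). These values cover only the 10 ligands that could be tested. *Cxcl10* is known to be induced by interferon, and the part of interferon in these levels was not tested.

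NF-kB is known to induce *Ccl3* and *Ccl4*, and all 20 listed genes of NF-kB and cytokines were detected. In the averaged contrast 20 of 20 were tested and none was called by edgeR or DESeq2. At an unadjusted p under 0.05, 3 were lower, against 9.19% of all genes in either direction. These were *Il1rn* at -1.42 ± 0.48, *Bcl3* at -1.06 ± 0.33 and *Relb* at -0.52 ± 0.17 (adjusted p from 0.327 to 0.347, edgeR). The median log2 fold change of the 20 was -0.11. The most abundant were *Nfkb1* (143 CPM, 0.20 ± 0.19), *Rel* (121 CPM, 0.01 ± 0.14), *Il1a* (74.1 CPM, -0.25 ± 0.17), *Tnfaip3* (62.7 CPM, -0.12 ± 0.14) and *Icam1* (57.7 CPM, 0.06 ± 0.24).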

How the data were processed

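Per the labels and the methods of the study, RNA from CD11b-selected striatal cells was amplified with the SMART-Seq v4 Ultra Low Input kit, and non-directional libraries were sequenced. The authors aligned reads to GRCm38 with STAR and deposited featureCounts values, whole-number counts per Ensembl gene without normalization. The submitters' processing notes name GRCh38. All 55536 gene identifiers matched GENCODE M21, the source of symbols and coordinates. Another 2 columns of per-sample values match no label and stayed out.

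A gene entered a comparison when 1 or more of its samples had 1 CPM or more. Tests were two-sided quasi-likelihood tests of edgeR 4.0.16 (R 4.3.3, TMM, no covariate; Benjamini-Hochberg FDR of 0.1), tried on simulated counts, on the samples of each pair of groups, or on all 18 for the averaged deletion and the interaction. Log2 CPM used a prior count of 2. Total counts of 11260410 to 29771983 per sample set the precision, and since cDNA was amplified and carried no molecular identifier, floors cover counting error only.

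Alternatives were DESeq2 1.42.0 or its size factors, total count scaling, other filters, an FDR of 0.05, sex or a score (non-microglial markers, dissociation response) in the model, one fit over 4 groups, and leaving out each sample. The members and gene lists were chosen with earlier results of these data known. Named by rule were the members, *Tyrobp*, called genes and the 5 most abundant of each list of ligands, receptors and NF-kB or cytokine genes, 3 of the dissociation list, and the 8 genes most like *Ccl3* and *Ccl4* within groups. Some items that the rule names are not reported here. Genes singled out for an unadjusted p under 0.05 were named after their values were seen.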

Additional observations from a re-analysis of the deposited data

Results flagged for a closer look

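In 30 sets of samples, 1 member in 1 group of 5, the gap of the most extreme sample to its neighbour was compared with the group's range. With a share above 0.71, 5 stood apart. For normally distributed values, chance exceeds this share in about 1 of 20 sets. That rate need not hold for CPM, least of all for *Cxcl2*, with no read in 11 of 18 samples. *Ccl3* was at 37.9 CPM in WT replicate 1, and without this sample *Ccl3* kept its call for the averaged deletion and *Ccl4* lost it. *Cxcl14* was at 46.6 CPM in Q175 replicate 14, the sample with the highest astrocyte marker sum. *Ccl2* was at 0.250 CPM in Q175;Tyrobp-KO replicate 5, below the other 4 samples of the group. *Cxcl2* was at 0.596 CPM in Q175 replicate 17 and at 0.626 CPM in Q175;Tyrobp-KO replicate 5, from 14 and 10 reads, with 0 to 2 reads in the other samples of those groups.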

How the results depend on the processing

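Over 40 log2 fold changes of single members and 856 refits, 810 kept their direction and their side of the threshold, 34 changed sign, 8 gained a call and 4 lost one. The 4 lost calls were *Ccl4* for the averaged deletion without 1 sample, and the number of members called there was 1 to 2 when leaving out 1 sample and 2 under every other alternative run. In Q175;Tyrobp-KO against Q175 the number called was 0, and 2 by DESeq2, 1 with one fit over all 4 groups, 1 with no filter, and 0 to 1 when leaving out 1 sample. It was 1 by DESeq2 in Q175 against WT and 2 by DESeq2 in Tyrobp-KO against WT. The cause of these differences was not tested. The difference of *Ccl3* and *Ccl4* from the other 8 chemokines moved from -0.65 to -1.17 with medians in Q175 against WT.

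None of the values that changed sign had passed the threshold, and their causes were not tested. With sex as a term, the log2 fold change turned to -0.30 for *Ccl2* and, with the non-microglial score, to -0.53 for *Cxcl14* in Q175 against WT. In Q175;Tyrobp-KO against Q175 it turned for *Ccl12* to 0.10 with total counts and 0.19 with sex, and for *Cxcl14* to 0.095 with sex and 0.44 with the non-microglial score. *Ccl6* in Tyrobp-KO against WT turned to 0.023 with sex. For the interaction, sex as a term gave 0.24 for *Ccl3*, 0.19 for *Ccl4*, -0.14 for *Ccl6* and 0.17 for *Ccl12*, and the non-microglial score -0.045 for *Ccl6*. Leaving out 1 sample gave ranges across 0: *Ccl12* -0.28 to 0.19 in Q175 against WT, -0.24 to 0.17 in Q175;Tyrobp-KO against Q175, -0.048 to 0.80 in Tyrobp-KO against WT, -0.034 to 0.35 for the averaged deletion and -0.79 to 0.024 for the interaction; *Cxcl14* -0.67 to 0.31 in Q175;Tyrobp-KO against Q175; *Ccl2* -0.64 to 0.34 in Tyrobp-KO against WT; and, for the interaction, *Ccl3* -0.51 to 0.076, *Ccl4* -0.68 to 0.069 and *Ccl6* -0.069 to 0.22. No paired analysis was possible because the groups share no replicate number. At these depths *Ccl7* and *Cxcl2*, with 0 to 17 reads, entered only fits with another filter, which called neither.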
